A study of Mus musculus with 12 samples.

Results

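The collagen genes were taken as every symbol made of Col, a type number, the letter a and a chain number, in the count tables of white adipose tissue and of cultured adipocytes of the mouse. This gave 44 genes of 27 collagen types on 15 chromosomes, all listed in both tables, of 27821 symbols listed in either. They were grouped as 9 fibrillar chains (types 1, 2, 3, 5 and 11), 8 basement membrane chains (types 4, 15 and 18), 6 chains of the beaded type 6 and 21 others. The study asked what the loss of Xap5, a nuclear protein encoded by Fam50a, does in fat cells. White adipose tissue (WAT) was collected at postnatal day 42 from mice in which Xap5 had been deleted with an Adiponectin-driven Cre (cKO) and from wild-type mice (WT). Adipocytes in culture were taken on day 8 of induction, from pre-adipocytes of the subcutaneous fat of newborn knockout (KO) mice, from the same cKO line, and of newborn WT mice. All cultures were induced with insulin, dexamethasone and IBMX. Each of the 4 groups held 3 libraries. No label states that these 3 came from different animals or culture wells, so p-values describe the spread among these samples, which may be technical.

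Collagens are secreted matrix proteins whose chains wind around each other into a stiff helix. Fibrillar collagens assemble into cross-linked fibrils that carry tension, type 4 chains form the sheet-like network of basement membranes, and type 6 chains form beaded filaments next to those membranes. In fat, each adipocyte is wrapped in a basement membrane rich in type 4 and type 6 collagen, while fibroblast-like stromal cells make most of the fibrillar collagen. The adiponectin promoter is active in adipocytes, whereas WAT also holds stromal, vascular and immune cells, and in bulk RNA fewer cells of a type and less RNA per cell cannot be told apart.

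Total counts, in units of 1000000 reads, were 33.1 to 34.0 in cKO WAT and 28.8 to 30.7 in WT WAT, and 10.9 to 21.8 in KO cultures and 11.6 to 12.4 in WT cultures. Levels are counts per 1000000 after TMM scaling (edgeR's factors that put the bulk of genes on 1 level across libraries), written CPM. Fam50a had 23.3, 16.8 and 28.9 CPM in cKO WAT and 35.3, 32.5 and 36.5 CPM in WT WAT, a log2 fold change of -0.60 (adjusted p = 0.0395), and 46.2, 42.9 and 41.1 CPM in KO cultures and 57.9, 52.0 and 45.2 CPM in WT cultures (-0.26, adjusted p = 0.134). Of the cell type markers, 8 of 10 adipocyte markers and 5 of 8 endothelial markers were lower in cKO than in WT WAT, and 6 of 10 fibroblast and progenitor markers and 7 of 8 macrophage markers were higher, where 28.2% of all genes were higher and 24.2% lower. Of the markers of Schwann cells 4 of 8 were higher, of mural cells and myofibroblasts 1 of 9 was higher and 1 lower, of skeletal muscle 1 of 6 was higher, and of cartilage and bone 0 of 3 tested passed. The third cKO WAT library stood apart: its 7 epithelial markers summed to 643 CPM, against 5.05 and 4.72 CPM in the other cKO libraries and 10.7 to 33.2 CPM in WT WAT. Results that rest on that library are given with and without it. Other WAT libraries stood apart in single lists: the 8 Schwann markers summed to 924 to 989 CPM in cKO WAT and to 902 CPM in the first WT library, against 266 and 327 CPM in the other WT libraries. The 6 muscle markers summed to 1173 CPM in the first cKO and 1560 CPM in the third WT library, against 31.7 to 240 CPM in the rest.

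Collagen RNA took a larger share of the cKO WAT libraries and a smaller share of the KO cultures. All 44 genes together took 1.95%, 1.51% and 2.1% of counts in cKO WAT, against 0.777%, 0.716% and 0.664% in WT WAT. In culture they took 2.16%, 2.12% and 2.43% in KO, against 3.51%, 3.53% and 2.78% in WT. The groups did not overlap in either source. The exact two-sided permutation test over samples gave p = 0.1 for each, the smallest it can give with 3 against 3 libraries. These shares use no TMM factors and amount to scaling by library size alone. The TMM factors were 1.229 to 1.301 in cKO WAT and 0.781 to 0.796 in WT WAT, so on the TMM scale the WAT difference is smaller.

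The make-up of collagen RNA in WAT lay apart in cKO and WT for fibrillar and basement membrane chains and for the 21 others together. Fibrillar chains made up 67.4%, 57.8% and 67.8% of collagen counts in cKO WAT, against 46.2%, 40.2% and 40.8% in WT WAT. Basement membrane chains made up 19.1%, 26.3% and 18.2% in cKO WAT, against 37.0%, 44.4% and 45.0% in WT WAT. Both differences had p = 0.1 by the exact permutation test, with no overlap. Beaded chains averaged 13.7% ± 1.31 in cKO and 14.9% ± 1.27 in WT WAT (SD, n = 3 each; exact permutation p = 0.3), which overlapped. The 21 others together made up 0.666%, 0.777% and 1.00% in cKO WAT, against 0.601%, 0.502% and 0.516% in WT WAT (exact permutation p = 0.1). Their mean difference was 0.274 percentage points, and 0.182 without the third cKO library. In culture the fibrillar share was 65.6% ± 1.25 in KO and 64.4% ± 0.250 in WT (SD, n = 3 each; exact permutation p = 0.1), a difference of 1.20 percentage points that was 0.481 without the first KO culture. The basement membrane share in culture was 18.7% ± 0.847 in KO and 19.3% ± 0.478 in WT (exact permutation p = 0.5).

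**Figure D1:**
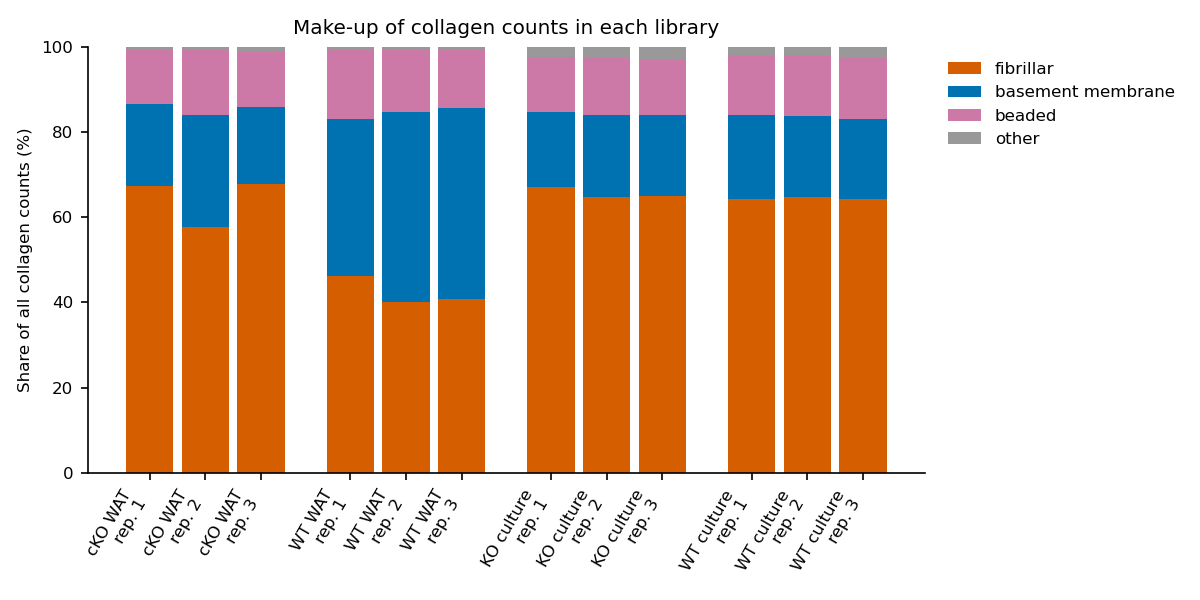
Share of all collagen counts (%) taken by fibrillar, basement membrane, beaded and other collagen genes, 1 stacked bar per library, from cKO WAT on the left to WT culture on the right. Fibrillar chains fill 57.8% to 67.8% of the cKO WAT bars and 40.2% to 46.2% of the WT WAT bars, and average 65.6% in KO cultures and 64.4% in WT cultures.

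Per kilobase of transcript, the collagens at the top of the list were few. Col3a1, Col1a2, Col1a1, Col4a1 and Col6a1 took 72.2% of the length-corrected collagen counts in cKO WAT, and Col3a1, Col4a1, Col4a2, Col6a2 and Col6a1 took 68.7% in WT WAT. Col1a1 ranked 3 in cKO WAT, with a mean of 12.5% of length-corrected collagen counts, and 8 in WT WAT, with 5.74%. Col4a2 ranked 7 in cKO WAT, with 4.90%, and 3 in WT WAT, with 12.8%. In KO and WT cultures alike the top 5 were Col3a1, Col1a2, Col1a1, Col4a1 and Col6a1, together 75.3% in KO and 74.6% in WT.

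In WAT, 35 of the 44 genes had enough counts to be tested, and 15 were higher in cKO, 3 were lower and 17 did not pass the threshold of an adjusted p under 0.05 (edgeR's quasi-likelihood test, Benjamini-Hochberg over all genes). Of all 16293 genes tested, 28.2% were higher and 24.2% were lower. In 35.1% of all genes every cKO library lay above every WT library, and in 29.3% below. The median log2 fold change was 0.81 over the 35 collagens and 0.12 over all genes. The 9 collagens below the count filter were Col2a1, Col4a6, Col6a4, Col9a1, Col10a1, Col17a1, Col19a1, Col22a1 and Col25a1, of which Col10a1, Col19a1, Col22a1 and Col25a1 had 0 to 17 reads in each cKO library and 0 to 10 in each WT library. Scaling by library size alone, without TMM, moved the median of all genes up by 0.68, and then 25 collagens were higher and 1 lower, beside 54.2% and 8.76% of all genes, so each fold change in WAT stands relative to that choice.

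Of the 8 fibrillar chains tested in WAT, 5 rose and none fell. Col1a1 and Col1a2 encode the chains of type 1 collagen, the main fibril protein of connective tissue. Col1a1 had 2087, 1249 and 2450 CPM in cKO WAT, against 653, 495 and 437 CPM in WT WAT, a log2 fold change of 1.87 ± 0.30 (SE, n = 3 each; adjusted p = 0.00232). Col1a2 had 2144, 1360 and 2522 CPM in cKO WAT, against 743, 467 and 454 CPM in WT WAT, a log2 fold change of 1.86 ± 0.31 (SE; adjusted p = 0.00274). For both genes the lowest cKO library stood well above the highest WT library, and the second cKO library was the lowest of its group. The same library held the most adipocyte marker RNA of the cKO group, 19515 CPM summed over 10 markers, against 10846 and 7706 CPM in the other cKO libraries and 60772 to 64170 CPM in WT WAT. The part of that difference in the collagen values was not tested.

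Since Col1a2 is the chain of type 1 with an entry in the RefSeq promoter table (build GRCm38.p6), its window from 250 bases before to 50 bases after the start is shown, chr6:4505368-4505667 on the plus strand, with CCAAT and GGGCGG boxes on either strand in capitals.
Col1a2 promoter: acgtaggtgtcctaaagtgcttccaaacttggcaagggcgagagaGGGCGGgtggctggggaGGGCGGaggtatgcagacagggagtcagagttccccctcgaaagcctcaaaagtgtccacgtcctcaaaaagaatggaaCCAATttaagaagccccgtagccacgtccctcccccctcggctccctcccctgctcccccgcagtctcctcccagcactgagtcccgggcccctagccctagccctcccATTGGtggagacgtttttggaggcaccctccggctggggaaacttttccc
The window holds 2 CCAAT boxes, 1 of them as ATTGG on the other strand, and 2 GGGCGG boxes, and no base belongs to more than 1 of them. The table held 38 windows of 35 collagen genes. CCAAT, searched on both strands, was in 34.2% of those windows and in 37.4% of all 32851 windows of that length. TATAAA was in 13.2% of the collagen windows and 13.6% of all, and GGGCGG in 60.5% of the collagen windows and 35.7% of all. These matches describe the letters of the windows only.

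Col3a1, whose product mixes with type 1 in the fibrils of elastic tissue, had the highest level per kilobase of all collagens in cKO and in WT WAT. It had 5081, 3430 and 4884 CPM in cKO WAT, against 2184, 1757 and 1623 CPM in WT WAT (log2 fold change 1.27 ± 0.24 SE; adjusted p = 0.00478). The type 5 chains Col5a1 and Col5a2, which sit in the core of type 1 fibrils and set their width, also rose, with smaller fold changes. Col5a1 had 363, 296 and 397 CPM in cKO WAT, against 222, 214 and 175 CPM in WT WAT (0.79 ± 0.16 SE; adjusted p = 0.00638), and Col5a2 had 287, 238 and 301 CPM in cKO WAT, against 172, 167 and 166 CPM in WT WAT (0.71 ± 0.13 SE; adjusted p = 0.00423). Neither pair of groups overlapped. Col3a1 and Col5a2 are neighbours on chromosome 1, with 24624 bases between their RefSeq gene entries.

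The remaining type 5 chain, Col5a3, did not pass and pointed the other way. It had 395, 538 and 409 CPM in cKO WAT, against 532, 591 and 562 CPM in WT WAT (log2 fold change -0.33 ± 0.16 SE; adjusted p = 0.132), so that its groups overlapped through the second cKO library. Without that library its log2 fold change was -0.51 (adjusted p = 0.00766), and with library size as the only scaling it was 0.35, in the opposite direction. Col11a1, a minor fibril chain best known from cartilage, had 1.00, 2.21 and 3.96 CPM in cKO WAT and 1.44, 0.125 and 0.455 CPM in WT WAT (1.83 ± 0.86 SE on the log2 scale; adjusted p = 0.1097). Its call was made without the first WT library (3.02; adjusted p = 0.0351) and with 1 fit over all 4 groups (1.88; adjusted p = 0.0124). Col11a2, its partner chain, had a log2 fold change of 0.36 (adjusted p = 0.520). Col2a1, the fibril chain of cartilage, had 4, 4 and 13 reads in cKO WAT and no read in WT WAT. That is at least 3.92-fold higher over the group when WT WAT is set at a floor of 3 counts over its 3 libraries (0.0422 CPM), and at least 2.29-fold higher without the third cKO library. This bound covers counting error in WT WAT only, since the cKO reads enter as counted and the spread between libraries is left out.

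**Figure D2:**
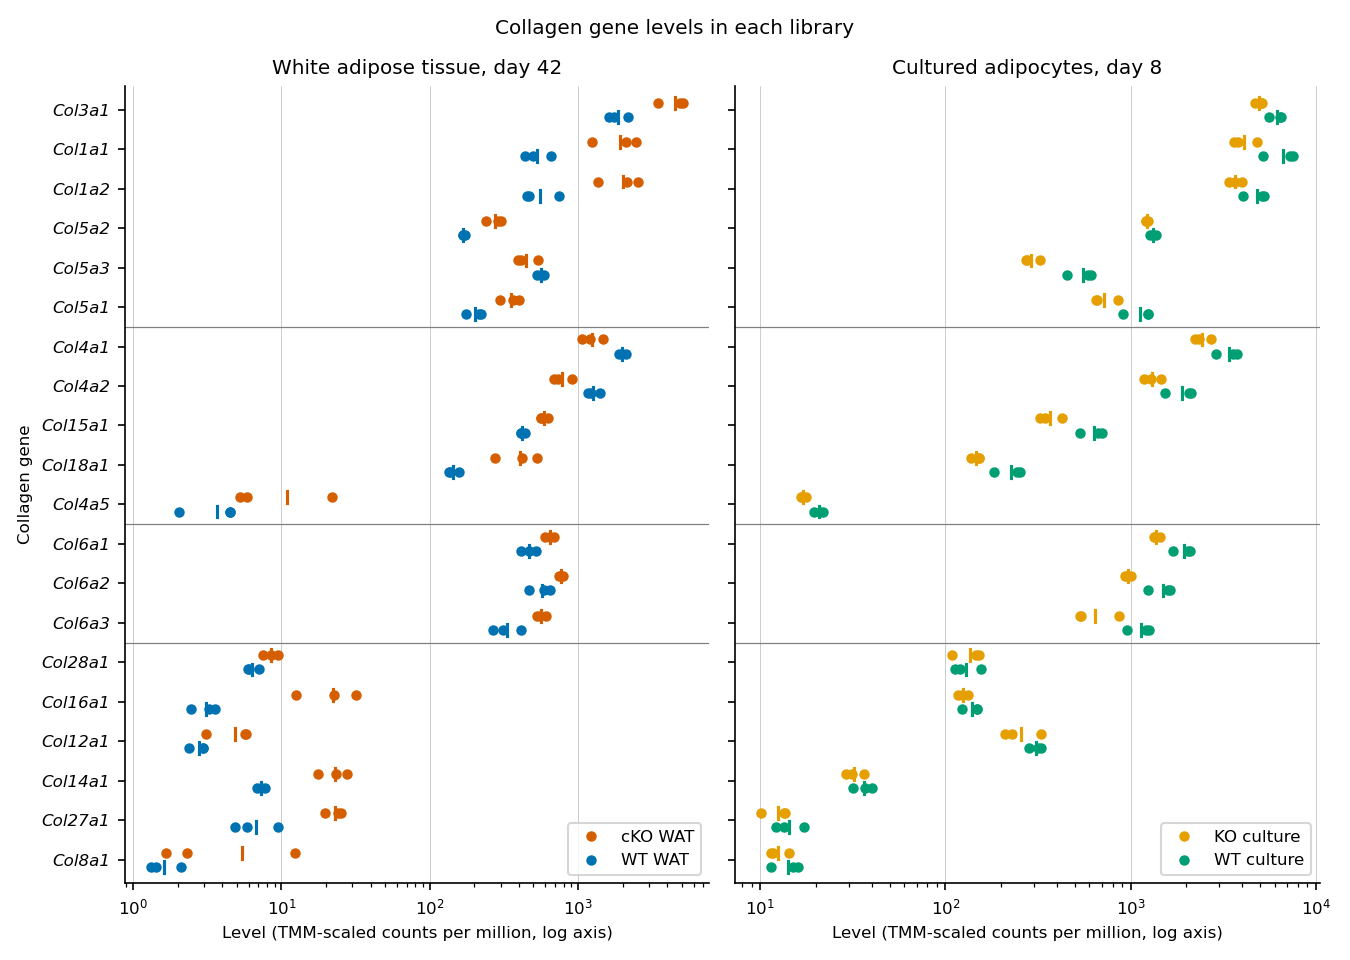
Level of the more abundant collagen genes in every library, in TMM-scaled CPM on a log axis, for WAT on the left and cultures on the right. Dots are libraries, vertical ticks are group means, knockouts are drawn above their wild types, and grey lines part the fibrillar, basement membrane, beaded and other genes. In WAT the orange dots of Col1a1, Col1a2 and Col3a1 lie to the right of the blue ones and those of Col4a1 and Col4a2 to the left.

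The basement membrane chains split by type in WAT: of 7 tested, types 15 and 18 rose and the 2 abundant type 4 chains fell. Col4a1 and Col4a2, which together form the common type 4 helix, were both lower in all 3 cKO libraries. Col4a1 had 1203, 1473 and 1067 CPM in cKO WAT, against 1882, 2100 and 1969 CPM in WT WAT (log2 fold change -0.67 ± 0.19 SE; adjusted p = 0.0206). Col4a2 had 735, 914 and 693 CPM in cKO WAT, against 1169, 1404 and 1220 CPM in WT WAT (-0.70 ± 0.18 SE; adjusted p = 0.0143). Both falls depended on the scaling: by library size alone they were 0.01 for Col4a1 and -0.02 for Col4a2. Leaving out the second WT or the first cKO library gave adjusted p-values of 0.0705 and 0.0872 for Col4a1 and of 0.0573 and 0.0675 for Col4a2, and leaving out the third WT library gave 0.0631 for Col4a1. Endothelial cells also make type 4 collagen, and 5 of 8 endothelial markers fell beside it, with a summed level of 825, 733 and 553 CPM in cKO WAT and 1013, 1407 and 1347 CPM in WT WAT. By library size alone 1 of the 8 was lower and 1 higher, and the summed levels per 1000000 reads overlapped, at 1045, 899 and 717 in cKO WAT and 806, 1098 and 1068 in WT WAT. Their part in the values of Col4a1 and Col4a2 was not tested.

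Col4a1 and Col4a2 lie head to head on chromosome 8, where their RefSeq gene entries overlap by 85 bases. Their promoter windows share 78 bases, chr8:11312777-11312854, which are shown on the strand of Col4a2 because the windows of both genes hold it and both genes were lower in the knockouts, with GGGCGG in capitals.
Stretch shared by the Col4a1 and Col4a2 promoters: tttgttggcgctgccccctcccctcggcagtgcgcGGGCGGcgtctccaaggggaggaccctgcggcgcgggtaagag
It holds 1 GGGCGG box and no whole CCAAT box on either strand.

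Col15a1 and Col18a1 encode chains that link basement membranes to the matrix beneath, and the cut end of the type 18 chain is endostatin. Col18a1 had 420, 276 and 526 CPM in cKO WAT, against 137, 157 and 135 CPM in WT WAT, a log2 fold change of 1.51 ± 0.24 (SE; adjusted p = 0.00227). Col15a1 had 565, 564 and 624 CPM in cKO WAT, against 415, 411 and 439 CPM in WT WAT (0.47 ± 0.13 SE; adjusted p = 0.0188). The Col15a1 groups stood clear of each other, but its call was lost when any library but the second cKO one was left out (adjusted p from 0.0561 to 0.0720) and after removal of length and GC trends (0.35, adjusted p = 0.0688). Of the type 4 chains found in kidney and other special membranes, Col4a3 (-0.40) and Col4a4 (-0.21) did not pass. Both turned positive by library size alone, at 0.27 for Col4a3 and 0.46 for Col4a4.

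Of the 5 beaded chains tested in WAT, 4 rose. Col6a1, Col6a2 and Col6a3 encode the abundant type 6 chains, and the cut end of the Col6a3 chain is known as endotrophin, a product of fat tissue. Col6a3 had 551, 530 and 609 CPM in cKO WAT, against 414, 310 and 267 CPM in WT WAT (log2 fold change 0.77 ± 0.19 SE; adjusted p = 0.0123). Col6a1 had 646, 594 and 689 CPM in cKO WAT, against 522, 467 and 414 CPM in WT WAT (0.46 ± 0.15 SE; adjusted p = 0.0364). Col6a2 had 763, 740 and 794 CPM in cKO WAT, against 650, 586 and 468 CPM in WT WAT and did not pass (0.43 ± 0.17 SE; adjusted p = 0.0619), though it did with DESeq2 (0.38; adjusted p = 0.0380) and with 1 fit over all 4 groups (0.47; adjusted p = 0.0148). The cKO libraries of all these chains stood above the WT ones. The Col6a3 call was lost without the second WT library (adjusted p = 0.0567) and after removal of length and GC trends (0.50, adjusted p = 0.0516), and the Col6a1 call with RLE size factors (0.41, adjusted p = 0.0549), with the replicate block (0.46, adjusted p = 0.0749) and without the second WT, the third WT, the first cKO or the third cKO library (adjusted p = 0.105, 0.142, 0.115 and 0.0920).

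The rarer chains Col6a5 and Col6a6, which can take the place of the Col6a3 chain, changed more from a low base. Col6a5 had 170, 73 and 138 reads in cKO WAT, against 5, 11 and 0 reads in WT WAT (log2 fold change 3.71 ± 0.91 SE; adjusted p = 0.0123). Col6a6 had 4.14, 2.58 and 4.73 CPM in cKO WAT, against 1.35, 0.835 and 0.785 CPM in WT WAT (1.95 ± 0.40 SE; adjusted p = 0.00601). Their neighbour on chromosome 9, Col6a4, had 9, 10 and 15 reads in cKO WAT and 0, 6 and 6 reads in WT WAT and was not tested.

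Of the 15 other collagens tested in WAT, 4 rose and 1 fell. Col16a1, a chain that sits on the surface of fibrils and of dermal microfibrils, had 22.8, 12.5 and 31.6 CPM in cKO WAT, against 3.57, 3.25 and 2.44 CPM in WT WAT (log2 fold change 2.85 ± 0.37 SE; adjusted p = 0.00116), or 2.74 with the counts of a numbered copy added. Col14a1, a fibril-associated chain, had 17.7, 23.3 and 27.6 CPM in cKO WAT, against 7.32, 7.72 and 6.82 CPM in WT WAT (1.65 ± 0.20 SE; adjusted p = 0.000964). Col27a1, a fibril-forming chain of cartilage, had 24.1, 19.8 and 25.1 CPM in cKO WAT, against 9.50, 4.88 and 5.87 CPM in WT WAT (1.77 ± 0.27 SE; adjusted p = 0.00204). In each of these genes the lowest cKO library lay above the highest WT library. Col24a1, a second fibril-forming chain outside the classic types, had 27, 54 and 27 reads in cKO WAT, against 4, 3 and 5 reads in WT WAT (2.32 ± 0.57 SE; adjusted p = 0.0119), a call lost with the replicate block (2.24, adjusted p = 0.0517). The chain that fell was Col13a1, which spans the cell membrane. It had 16, 18 and 10 reads in cKO WAT, against 48, 34 and 21 reads in WT WAT (-2.05 ± 0.52 SE; adjusted p = 0.0135).

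Other chains of this group moved little or without a call. Col28a1, known from nerve, had 8.52, 9.46 and 7.50 CPM in cKO WAT and 6.01, 7.05 and 5.99 CPM in WT WAT (log2 fold change 0.42; adjusted p = 0.111), with no overlap, and passed with 1 fit over all 4 groups (0.46; adjusted p = 0.0296). Col12a1, a fibril-associated chain of tendon and fascia, had 3.12, 5.72 and 5.71 CPM in cKO WAT and 2.96, 2.96 and 2.40 CPM in WT WAT (0.81; adjusted p = 0.0700), and passed without the first cKO library (1.03; adjusted p = 0.0384). Col20a1 (-0.31), Col23a1 (0.52) and Col26a1 (0.73) did not pass, and Col20a1 turned to 0.37 by library size alone. Col8a2 had 53, 40 and 82 reads in cKO WAT and 25, 0 and 0 reads in WT WAT, and did not pass by edgeR's test (adjusted p = 0.253). It passed with limma voom (4.10; adjusted p = 0.0293) and without the first WT library (adjusted p = 0.00615), when the WT libraries left held no read.

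**Figure D3:**
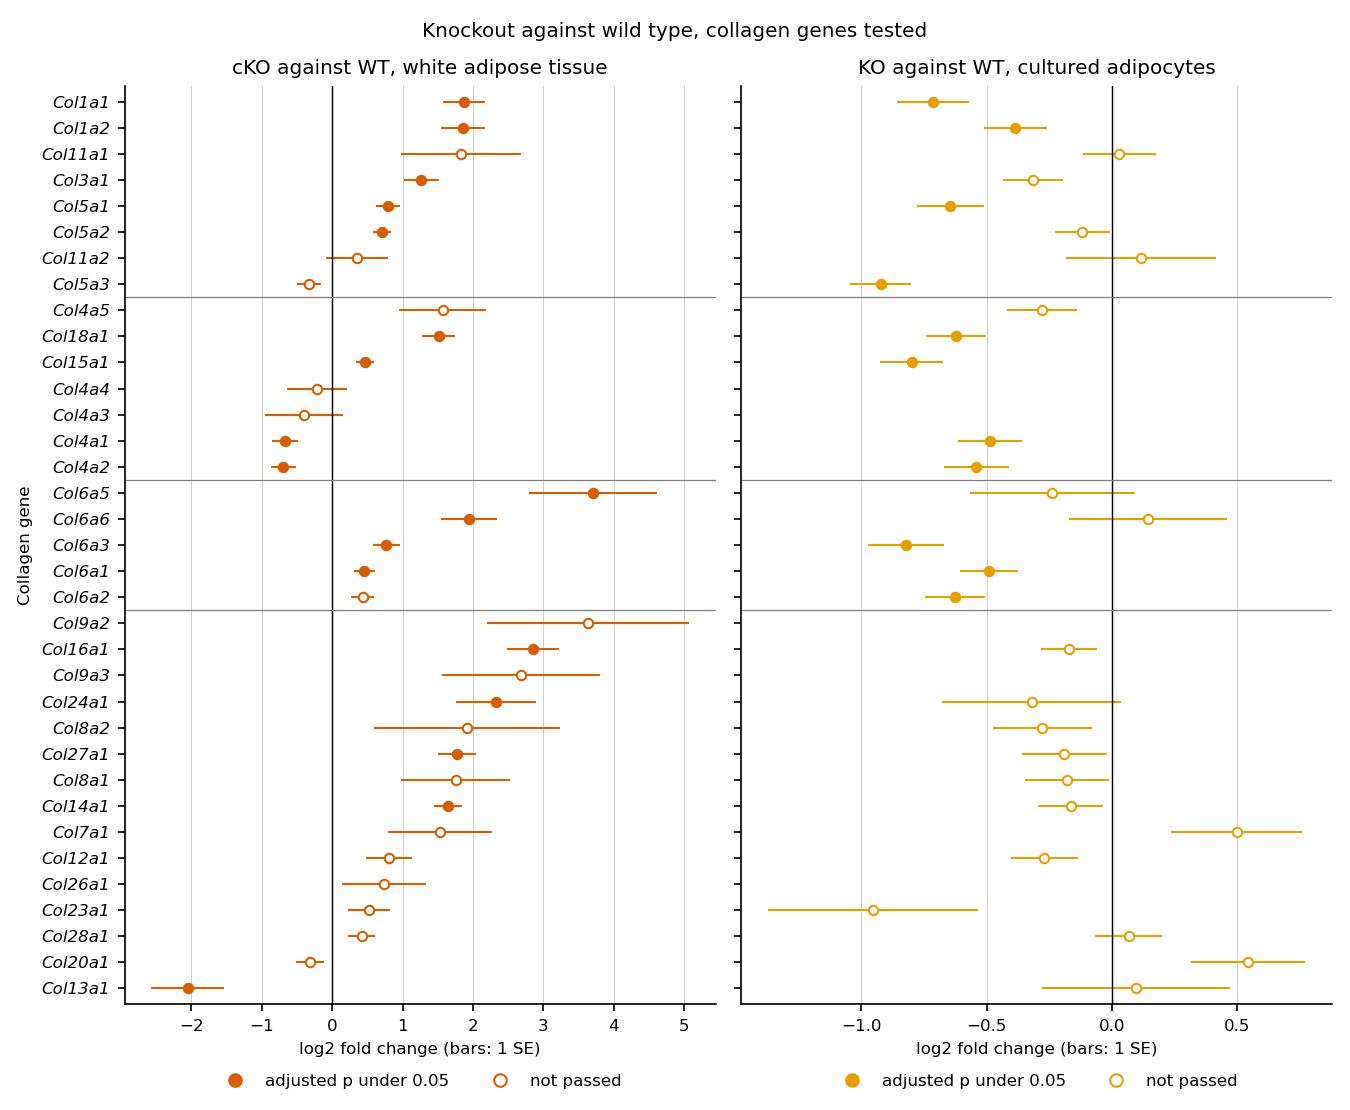
Log2 fold change of each collagen gene tested, knockout over wild type, with bars of 1 SE, in WAT on the left and in culture on the right; filled dots had an adjusted p under 0.05, and the axes differ in range. In WAT 15 filled dots lie right of 0 and 3 left of it, and in culture all 11 filled dots lie left of 0.

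In 8 collagens, picked after their values were seen, the third cKO WAT library stood far above the other 5. Col4a5 had 222, 238 and 963 reads in cKO WAT and 104, 49 and 109 reads in WT WAT. Its neighbour and partner chain Col4a6 had 8, 7 and 271 reads in cKO WAT and 9, 7 and 6 reads in WT WAT, and both chains are known from the membranes under epithelia. Col17a1, a membrane collagen that anchors epithelial cells, had 17, 10 and 114 reads in cKO WAT, and Col7a1, which forms the anchoring fibrils beneath skin, had 82, 81 and 494 reads. Col8a1 had 97, 68 and 544 reads, and the type 9 chains of cartilage had 2, 0 and 139 reads (Col9a1), 17, 20 and 313 reads (Col9a2) and 30, 30 and 168 reads (Col9a3). The highest WT library of these last 6 genes held 48 reads, in Col7a1 and in Col8a1. In each of the 8 genes the third cKO library held the most reads of all WAT libraries.

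Epithelial markers were high in the same library. Epcam had 103 CPM there, against 0.619 and 0.0737 CPM in the other cKO libraries and 0.413 to 4.10 CPM in WT WAT, and Krt8 had 209 CPM there, against at most 0.147 CPM in the other cKO libraries. Krt5 and Krt14 had 8.70 and 5.84 CPM there and no read in the other cKO libraries. Of the 9 cartilage and bone markers, Sox9 had 22.3 CPM there, against 1.55 and 0.491 CPM in the other cKO libraries. Runx2 had 165, 90 and 207 reads in cKO WAT. Comp (71, 64 and 16 reads), Acan (10, 0 and 3 reads), Sp7 (9, 13 and 5 reads) and Bglap (0, 1 and 0 reads) were not highest in the third cKO library. Matn1, Matn3 and Ibsp had no read in WAT. Of the epithelial markers tested in WAT, Trp63 was lower in cKO and 4 did not pass. Of this set, Col4a5, Col7a1, Col8a1, Col9a2 and Col9a3 had enough counts for the test. By edgeR's test with all WAT libraries 0 of these 5 passed, and Col4a5, Col9a2 and Col9a3 had an unadjusted p under 0.05. DESeq2 called Col4a5 (1.52, adjusted p = 0.0190), Col8a1 (1.70, adjusted p = 0.0360) and Col9a3 (2.65, adjusted p = 0.0318). With 1 fit over all 4 groups all 5 were called, as they were by library size alone. Of all genes, 29.0% were higher with DESeq2, 35.7% with that fit and 54.2% by library size alone. The share was 26.3% without the second cKO library and 20.4% without the first. Without the second cKO library Col4a5 (1.85; adjusted p = 0.0451), Col8a1 (2.15; adjusted p = 0.0357) and Col9a2 (4.09; adjusted p = 0.0483) passed, and without the first cKO library Col4a5 did (1.88; adjusted p = 0.0460). Without the third cKO library the log2 fold change of Col4a5 was 0.58, against 1.57 with it by edgeR, that of Col7a1 was 0.16, against 1.53 with it, and that of Col8a1 was 0.30, against 1.75 with it. Col9a2 had 1.05 without it, against 3.63 with it, and Col9a3 had 1.41 without it, against 2.69 with it. The share of epithelial RNA in these values was not tested. Of the 15 collagens that rose in WAT, 13 passed without this library, when 23.1% of all genes were higher and 21.7% lower, Col6a1 and Col15a1 being the exceptions, and all 3 that fell did so, with Col4a1 at an adjusted p of 0.0499.

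**Figure D4:**
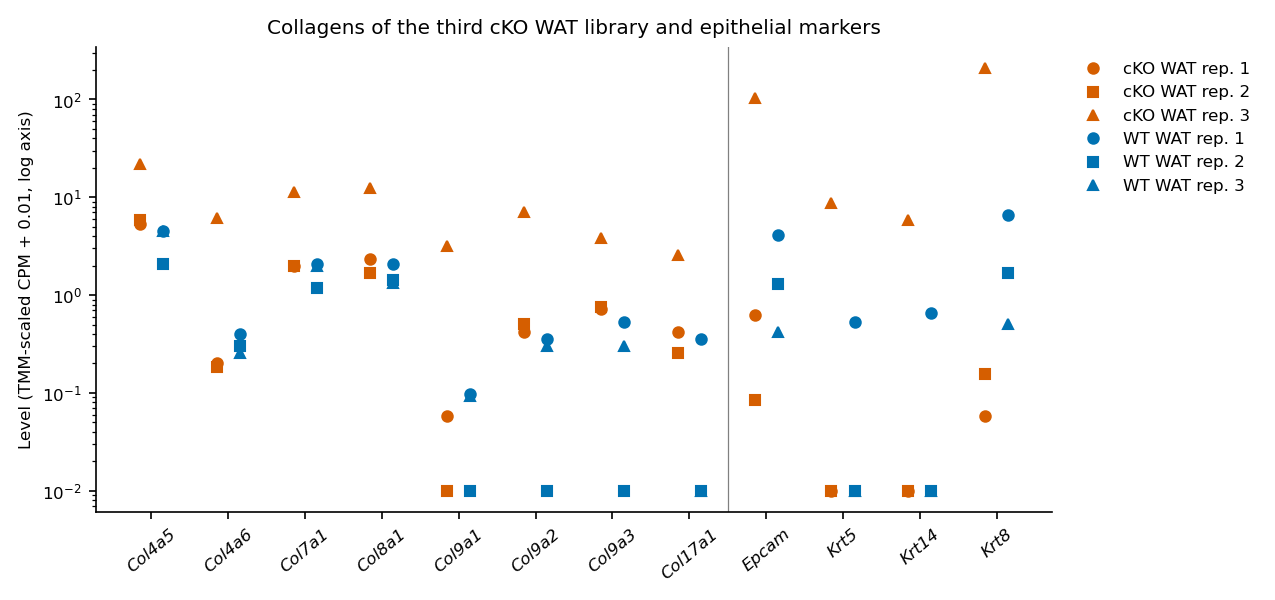
Level of 8 collagen genes and of the epithelial markers Epcam, Krt5, Krt14 and Krt8 in the 6 WAT libraries, in TMM-scaled CPM plus 0.01 on a log axis, with a marker shape for each replicate. The triangle of the third cKO library stands above every other point for each gene, at 21.8 CPM for Col4a5 and 103 CPM for Epcam.

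In culture, 30 collagens were tested, and 0 were higher in KO, 11 were lower and 19 did not pass (edgeR's quasi-likelihood test). Of all 12587 genes tested there, 8.94% were higher and 10.6% lower. The count of collagens higher at an unadjusted p under 0.05 was 1, Col20a1, and DESeq2 and limma voom also gave 0, with 9.67% and 9.12% of all genes higher. In 18.8% of all genes every KO culture lay below every WT culture. The median log2 fold change was -0.28 over the 30 collagens and -0.02 over all genes. Besides the 9 left out in WAT, Col4a3, Col4a4, Col9a2, Col9a3 and Col26a1 were below the count filter. Col9a1 had no read in any of the 6 culture libraries, which allows up to 0.0569 CPM in KO and 0.0825 CPM in WT.

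Of the 8 fibrillar chains tested in culture, 4 fell. Col5a3 changed most among them, with 277, 273 and 323 CPM in KO cultures, against 611, 590 and 456 CPM in WT cultures (log2 fold change -0.92 ± 0.12 SE; adjusted p = 2.57e-05). Col1a1 had 3799, 3611 and 4821 CPM in KO cultures, against 7277, 7547 and 5224 CPM in WT cultures (-0.71 ± 0.14 SE; adjusted p = 0.00155). Col5a1 had 652, 658 and 857 CPM in KO cultures, against 1236, 1237 and 915 CPM in WT cultures (-0.64 ± 0.13 SE; adjusted p = 0.00186). In all of these the third WT culture was the lowest of its group and the third KO culture the highest, and the groups still did not overlap. Col1a2 had 3665, 3405 and 3991 CPM in KO cultures, against 5267, 5150 and 4031 CPM in WT cultures (-0.39 ± 0.13 SE; adjusted p = 0.0348). Its call was lost without the first or second KO culture or the first or second WT culture (adjusted p = 0.0772, 0.170, 0.166 and 0.197).

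Col3a1 did not pass in culture, with 5119, 4715 and 5036 CPM in KO and 6403, 6495 and 5601 CPM in WT (log2 fold change -0.32 ± 0.12 SE; adjusted p = 0.0633). The adjusted p fell under the threshold with DESeq2 (-0.31, adjusted p = 0.0177), limma voom (-0.31, adjusted p = 0.0399), the replicate block (-0.31, adjusted p = 0.0118), library size alone (-0.37, adjusted p = 0.0296) and without the third WT culture (-0.37, adjusted p = 0.0222). Col5a2 had 1209, 1219 and 1235 CPM in KO and 1279, 1369 and 1326 CPM in WT, a difference that did not pass (-0.12; adjusted p = 0.476). Col11a1 (0.03) and Col11a2 (0.12) did not pass. Col2a1 had at most 6 reads in a culture.

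The basement membrane chains that passed in culture all fell, 4 of 5 tested. Col15a1 had 345, 325 and 425 CPM in KO cultures, against 671, 703 and 533 CPM in WT cultures (log2 fold change -0.80 ± 0.13 SE; adjusted p = 0.000183). Col18a1 had 137, 153 and 151 CPM in KO cultures, against 252, 243 and 183 CPM in WT cultures (-0.62 ± 0.12 SE; adjusted p = 0.00114). Col4a1 had 2220, 2338 and 2733 CPM in KO cultures, against 3751, 3581 and 2879 CPM in WT cultures (-0.49 ± 0.13 SE; adjusted p = 0.00964), and Col4a2 had 1177, 1298 and 1457 CPM in KO cultures, against 2115, 2073 and 1536 CPM in WT cultures (-0.54 ± 0.13 SE; adjusted p = 0.00546). None of these groups overlapped, though the third KO and the third WT culture came close to each other for both type 4 chains. Without the second WT culture the adjusted p was 0.0769 for Col4a1 and 0.0600 for Col4a2. For Col4a1 it was 0.0585 without the second KO culture and 0.0637 without the first WT culture. Col4a5 did not pass (-0.28; adjusted p = 0.159).

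Of the 5 beaded chains tested in culture, the 3 abundant ones fell. Col6a3 had 531, 542 and 862 CPM in KO cultures, against 1215, 1251 and 953 CPM in WT cultures (log2 fold change -0.82 ± 0.15 SE; adjusted p = 0.000766). Col6a2 had 934, 953 and 1008 CPM in KO cultures, against 1584, 1642 and 1240 CPM in WT cultures (-0.63 ± 0.12 SE; adjusted p = 0.00108). Col6a1 had 1358, 1345 and 1440 CPM in KO cultures, against 2088, 2032 and 1703 CPM in WT cultures (-0.49 ± 0.12 SE; adjusted p = 0.00506), and its adjusted p was 0.0549 without the second WT culture. Every KO culture lay below every WT culture for all 3. Col6a5 (-0.24) and Col6a6 (0.14) did not pass.

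None of the 12 other collagens tested in culture passed. Their log2 fold changes ran from -0.96 for Col23a1 (adjusted p = 0.109) to 0.54 for Col20a1 (adjusted p = 0.0959). Col16a1, which rose in WAT, had 133, 117 and 123 CPM in KO and 148, 148 and 123 CPM in WT cultures (-0.17; adjusted p = 0.299). Col12a1 had 211, 230 and 329 CPM in KO and 283, 318 and 328 CPM in WT cultures (-0.27; adjusted p = 0.156), and passed with the replicate block (-0.30, adjusted p = 0.0210) or without the third KO culture (-0.49, adjusted p = 0.00663). Col28a1 had 109, 146 and 151 CPM in KO and 112, 121 and 156 CPM in WT cultures, which overlapped.

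The falls in culture were under 2-fold and depended on the fit. With a minimum of 2-fold, 0 collagens were lower, beside 1.05% of all genes. With 1 spread estimated over all 4 groups, Col5a3 and Col15a1 remained, at a background of 0.608% of genes lower. Collagen transcripts are long and rich in GC, with a median of 5989 bases and 55.1% GC, against 2950 bases and 48.72% over all symbols of the WAT table. After removal of each library's trend with length and GC, Col1a1, Col5a3, Col6a1, Col6a2, Col6a3 and Col15a1 were still lower, the calls of Col1a2, Col4a1, Col4a2, Col5a1 and Col18a1 were lost (log2 fold changes from -0.21 to -0.07), and Col7a1 (0.99) and Col20a1 (0.83) were higher. In that fit 9.13% of all genes were lower and 11.5% higher. Of the markers in culture, 4 of 9 adipocyte markers were higher and 0 lower, beside 8.94% and 10.6% of all genes, with a summed level of 24758 to 29444 CPM in KO and 18628 to 20269 CPM in WT. Of the fibroblast and progenitor markers 3 of 9 were lower and 1 higher, at 1890 to 2301 CPM in KO and 2286 to 2482 CPM in WT, and 2 of 8 macrophage markers were lower. Their part in the collagen values was not tested.

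Where the knockout effect on a collagen differed between WAT and culture, the difference was mostly positive. In the interaction test over all 12 libraries, 37 collagens were tested, and the WAT effect minus the culture effect was positive for 20 and negative for 2, against 27.7% and 21.1% of all 14463 genes. The positive ones included 6 of 8 fibrillar, 3 of 7 basement membrane and 5 of 6 beaded chains. Col1a1 had a difference of 2.62 ± 0.36 on the log2 scale (SE; adjusted p = 0.000104), Col1a2 one of 2.28 ± 0.35 (adjusted p = 0.000197) and Col18a1 one of 2.17 ± 0.28 (adjusted p = 7.06e-05). Higher in WAT and lower in culture, each past the threshold, were 7 genes: Col1a1, Col1a2, Col5a1, Col6a1, Col6a3, Col15a1 and Col18a1. Of all genes tested, 28.2% were higher in WAT and 10.6% lower in culture, and the share with both calls was not counted. With length and GC trends removed both calls held for Col1a1 and Col6a1, with 1 fit over all 4 groups for Col15a1, and with a 2-fold minimum for 0 collagens.

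Col4a1 and Col4a2 were lower in the knockouts of both sources, and no difference between the effects passed for either. The difference was -0.15 ± 0.23 for Col4a1 and -0.12 ± 0.23 for Col4a2 (adjusted p = 0.614 and 0.696), an estimate whose SE leaves room for a difference in either direction. By library size alone the differences were 0.50 and 0.53. Col5a3, which passed in culture and not in WAT, had a difference of 0.63 ± 0.22 (adjusted p = 0.0280), and this call was lost in 6 of the 12 fits that left out 1 library. Among the others, Col16a1 had the lowest adjusted p of the difference (3.05 ± 0.37; adjusted p = 4.67e-05), followed by Col14a1 (1.85 ± 0.24; adjusted p = 6.37e-05). Col13a1 had a difference of -2.13 ± 0.65 (adjusted p = 0.0158), a call lost by library size alone (-1.49; adjusted p = 0.0611).

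Ratios of chains within a library are free of the scaling between libraries. In WAT the ratio of the partner chains Col1a1 and Col1a2 averaged -0.07 ± 0.05 in cKO and -0.05 ± 0.13 in WT on the log2 scale (SD, n = 3 each; exact permutation p = 1). Col4a1 over Col4a2 averaged 0.67 ± 0.05 in cKO and 0.65 ± 0.06 in WT (exact permutation p = 0.6), and Col6a1 over Col6a2 averaged -0.25 ± 0.06 in cKO and -0.27 ± 0.08 in WT (exact permutation p = 0.9). These 3 pairs of one helix differed between cKO and WT WAT by less than the spread of the libraries. Col6a3 over Col6a1 was -0.23, -0.16 and -0.18 in cKO WAT, against -0.34, -0.59 and -0.63 in WT WAT, with no overlap (exact permutation p = 0.1). Col4a5 over Col4a1 was -7.83, -7.98 and -5.61 in cKO WAT, against -8.70, -10.00 and -8.77 in WT WAT, also with no overlap (exact permutation p = 0.1).

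Further pairs lay apart between cKO and WT WAT in every library. Col3a1 over Col1a1 was 1.28, 1.46 and 1.00 in cKO WAT, against 1.74, 1.83 and 1.89 in WT WAT. Col5a3 over Col5a1 was 0.12, 0.86 and 0.04 in cKO WAT, against 1.26, 1.47 and 1.69 in WT WAT, and Col15a1 over Col18a1 was 0.43, 1.03 and 0.25 in cKO WAT, against 1.60, 1.39 and 1.70 in WT WAT. None of these groups overlapped. Each had an exact permutation p of 0.1, the smallest possible. The adjusted p over 19 tests was 0.2375 for these and for the pairs with Col6a3 and Col4a5, so none passes. In culture Col1a1 over Col1a2 was 0.05, 0.09 and 0.27 in KO, against 0.47, 0.55 and 0.37 in WT. Col6a1 over Col6a2 was 0.54, 0.50 and 0.51 in KO, against 0.40, 0.31 and 0.46 in WT cultures. Col5a3 over Col5a1 was -1.24, -1.27 and -1.41 in KO, against -1.02, -1.07 and -1.01 in WT cultures. Each of these culture pairs had p = 0.1 by the exact permutation test and an adjusted p of 0.2375. Col3a1 over Col1a1 lay higher on average in KO cultures, at 0.29 ± 0.20, than in WT cultures, at -0.10 ± 0.17 (SD, n = 3 each; exact permutation p = 0.2), while in WAT it was lower in cKO.

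**Figure D5:**
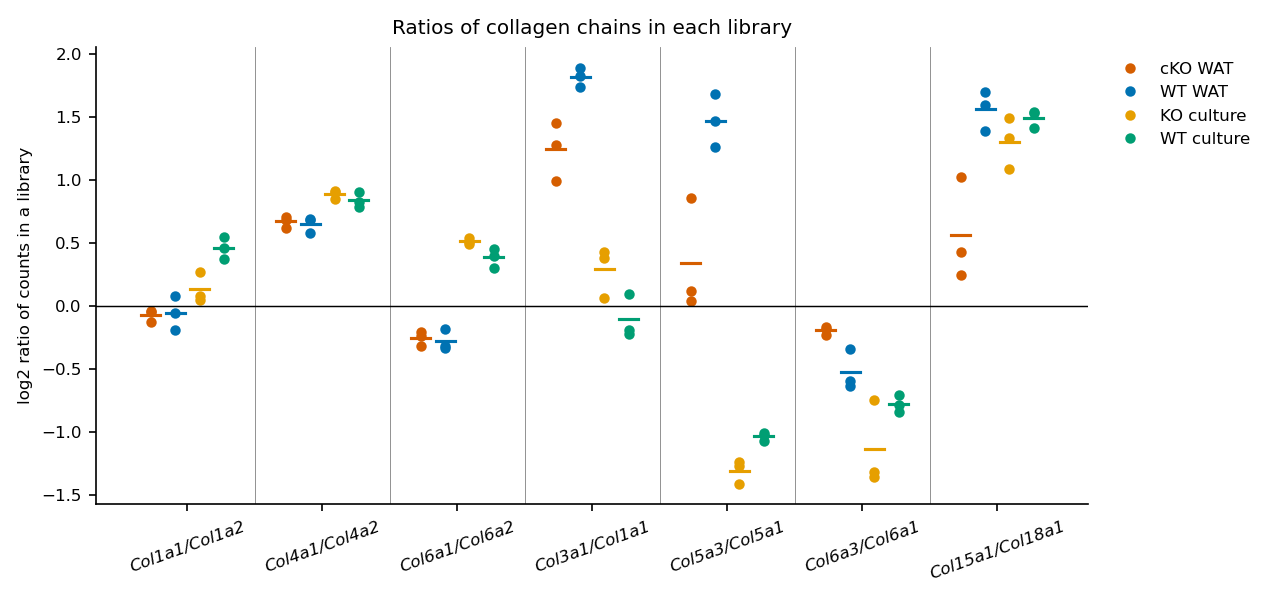
Log2 ratio of the counts of 2 collagen chains in each library, for 7 pairs, with dots for libraries and bars for means, in the order cKO WAT, WT WAT, KO culture and WT culture. The 2 WAT groups sit together for Col1a1/Col1a2, Col4a1/Col4a2 and Col6a1/Col6a2 and apart for Col3a1/Col1a1, Col5a3/Col5a1 and Col15a1/Col18a1.

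WT WAT and WT cultures differed widely in collagen RNA. Of 32 collagens tested between them, 3 were higher in WAT and 26 lower, against 38.3% and 37.6% of all 13400 genes. The source, the age, the count table and any sequencing run cannot be told apart in this comparison. Col12a1 had 2.96, 2.96 and 2.40 CPM in WT WAT, against 283, 318 and 328 CPM in WT cultures, each scaled within its own table, and its log2 fold change in the common fit was -6.90 ± 0.15 (SE; adjusted p = 1.36e-10). It was followed by Col16a1 (-5.59), Col11a1 (-4.92), Col8a2 (-4.51) and Col28a1 (-4.44). Col1a1 (-3.76), Col1a2 (-3.21) and Col5a2 (-3.07) were lower too. The 4 abundant basement membrane chains had smaller differences, at -0.88 for Col4a1, -0.69 for Col4a2, -0.69 for Col15a1 and -0.76 for Col18a1. Col5a3, with 561 ± 29.3 CPM in WT WAT and 552 ± 84.2 CPM in WT cultures (SD, n = 3 each), had a log2 fold change of -0.07 ± 0.13 (SE; adjusted p = 0.612), which was -0.45 and passed by library size alone (adjusted p = 0.00477). The 3 that were higher in WT WAT were Col4a4 (3.77), Col23a1 (2.15) and Col20a1 (1.17), all with low counts. The call of Col6a6 (-1.06) was lost without the second or the third WT library of WAT or the first or second WT culture (adjusted p = 0.0772, 0.0793, 0.0884 and 0.149). That of Col11a2 (-2.34) was lost with numbered copies added (-0.71, adjusted p = 0.112). Only the WAT table lists numbered copies of collagens, and the values above leave them out. In WT WAT, Col11a2-2 held 31, 39 and 24 reads, against 21, 11 and 16 for Col11a2. Col16a1-2 held 43, 37 and 50, against 82, 78 and 59 for Col16a1.

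Of 37 tested genes for modification, folding, export, trimming and cross-linking of collagen, 18 were higher and 4 lower in cKO than in WT WAT, beside 28.2% and 24.2% of all genes, with a median log2 fold change of 0.46, against 0.12 over all genes. By library size alone 31 were higher and 1 lower, beside 54.2% and 8.76% of all genes. In culture 0 of 35 were higher and 13 lower in KO, beside 8.94% and 10.6% of all genes, with a median of -0.26, against -0.02 over all genes. The largest rises in WAT were those of P4ha3, a prolyl hydroxylase subunit (4.67 ± 0.87 SE; adjusted p = 0.00423), Plod2, the lysyl hydroxylase for fibril cross-links (2.03 ± 0.32; adjusted p = 0.00240), and Pcolce, which speeds the trimming of procollagen (1.73 ± 0.25; adjusted p = 0.00180). The largest falls were those of Plod3 (-1.05), of Serpinh1, the collagen chaperone Hsp47 (-0.81; adjusted p = 0.00893), and of Sparc, a collagen-binding matrix protein (-0.55). Summed over the 38 genes, the level was 7190 to 7771 CPM in cKO WAT and 8691 to 9720 CPM in WT WAT, but per 1000000 reads without TMM it was 8828 to 9989 in cKO WAT and 6917 to 7587 in WT WAT, so the order of the groups depends on the scaling. In culture the largest falls were those of Adamts14 (-0.67), Bmp1 (-0.55) and Creb3l1 (-0.54).

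Of 14 collagen receptors and uptake genes tested, 10 were higher and 1 lower in cKO WAT, beside 28.2% and 24.2% of all genes, and 0 were higher and 4 lower in KO cultures, beside 8.94% and 10.6% of all genes. The largest log2 fold changes in WAT were those of Lair1 (3.43), an inhibitory receptor of immune cells, Adgrg6 (2.94), and Mrc1 (2.72), a macrophage receptor that takes up collagen. Macrophage markers, Mrc1 among them, summed to 1477, 758 and 1739 CPM in cKO WAT and 210, 164 and 233 CPM in WT WAT beside these, and their part was not tested. Adgrg1 was lower (-0.77). In culture Adgrg6 (-0.84), Mrc2 (-0.54) and Itga11 (-0.46) had the largest falls. Of 12 genes of collagen cleavage and its inhibitors, 7 were higher and 4 lower in cKO WAT, beside the same 28.2% and 24.2% of all genes. On the log2 scale Mmp13, a collagenase, rose by 3.68, Timp1 by 2.61 and Mmp14 by 2.38, while Mmp9 (-2.24), Pepd, which splits the proline dipeptides of digested collagen (-1.25), and Mmp15 (-0.79) fell. In KO cultures 1 was higher, Pepd (0.41), and 6 were lower, beside 8.94% and 10.6% of all genes, with the largest falls in Mmp9 (-1.20), Timp2 (-0.76) and Mmp15 (-0.65).

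Of the 10 fibroblast and progenitor markers, 6 were higher and 0 lower in cKO WAT, beside 28.2% and 24.2% of all genes. Their summed level was 2168, 1432 and 2050 CPM in cKO WAT and 643, 631 and 722 CPM in WT WAT, with the second cKO library again the lowest of its group. Lum rose by 3.05 on the log2 scale, Dpp4 by 2.46 and Dcn by 2.39, while Cd34 (0.19), Thy1 (-0.15), Cd55 (-0.08) and Ly6a (0.46; adjusted p = 0.0944) did not pass. The part of these cells in the collagen values was not tested.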

How the data were processed

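The authors deposited gene counts for WAT and for cultured adipocytes in separate tables, whole numbers with no normalization. RNA was extracted with TRIzol and libraries were made with an MGIEasy mRNA kit, per the labels' protocols. FastQC 0.11.2, cutadapt 1.11, HISAT2 2.1.0 and the build GRCm38 are named per the submitters' processing notes. How reads were counted, with which annotation and strand, is not given in the sources used here, so reads of overlapping or near-identical genes cannot be told apart. The 5 numbered copies of collagen symbols in the WAT table (such as Col16a1-2) were left out of the members. Numbered copies of any symbol entered the WAT fit as genes of their own. Total counts, in units of 1000000, were 28.8 to 34.0 in WAT and 10.9 to 21.8 in culture.

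Genes were filtered with filterByExpr (minimum count 10), scaled by TMM and tested with edgeR 4.0.16 in R 4.3.3 (quasi-likelihood test, Benjamini-Hochberg adjustment over all genes tested, threshold 0.05). WAT and culture were fitted apart. The interaction and the comparison of WT WAT with WT cultures used the symbols in both tables, which were counted separately. The SE is the size of the log2 fold change divided by the root of the F statistic. Shares and ratios were compared with exact two-sided permutation tests over samples. Positions and promoters came from RefSeq (GRCm38.p6), and all 44 genes matched by symbol. Transcript length and GC content were those of the longest GENCODE transcript of each symbol. Alternatives were RLE factors, library size alone, no filter, DESeq2 1.42.0, a block for the replicate number, limma 3.58.1 voom, 1 fit over all groups, length and GC trends removed, a 2-fold minimum, added copies and each library left out. On simulated data with known changes in 200 genes, the WAT fit recovered 0% of 1.5-fold, 7.25% of 2-fold and 69.6% of 4-fold changes. The culture fit recovered 48.5%, 93% and 100% of them, and the interaction fit 2.94%, 11.6% and 63.5%. The WAT data held far more calls, at 28.2% of genes higher and 24.2% lower, so recovery in the real fits may differ. The share of false calls was 11.7% in WAT, 6.94% in culture and 5.34% between WT WAT and WT cultures, all above the threshold. Same-numbered cKO and WT libraries did not deviate together throughout, so the numbers were not taken as pairs.

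The collagen genes and the lists (synthesis, receptors, cleavage, and markers of adipocytes, fibroblasts and progenitors, mural cells, endothelium, macrophages, Schwann cells, epithelium, cartilage and skeletal muscle) were chosen with earlier results of these data known. Named genes were those with the largest changes per collagen group and direction among the calls, the 3 of highest level per kilobase in each group, partner chains of the same helix, genes read in only 1 source, and the 3 largest changes per direction of the synthesis, receptor, cleavage and fibroblast lists; the other marker lists are given as counts and sums. Genes tied to the third cKO library were picked after their values were seen.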

Additional observations from a re-analysis of the deposited data

Results flagged for a closer look

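For 22 of the 37 collagen genes tested, the knockout effect in WAT differed from that in culture by the interaction test over all 12 libraries (edgeR, adjusted p under 0.05). Of all genes tested, 27.7% had a positive and 21.1% a negative difference. On the log2 scale, the WAT effect minus the culture effect was 2.62 for Col1a1, 2.28 for Col1a2, 1.62 for Col3a1, 1.47 for Col5a1, 0.86 for Col5a2 and 0.63 for Col5a3 among the fibrillar chains. It was 1.89 for Col4a5, 1.30 for Col15a1 and 2.17 for Col18a1 among the basement membrane chains, and without the third cKO WAT library the Col4a5 value was 0.93 (adjusted p = 0.0366). It was 0.98 for Col6a1, 1.09 for Col6a2, 1.62 for Col6a3, 4.01 for Col6a5 and 1.80 for Col6a6 among the beaded chains. Among the others it was 1.11 for Col12a1, 1.85 for Col14a1, 3.05 for Col16a1, 1.55 for Col23a1, 2.73 for Col24a1 and 2.00 for Col27a1, and it was negative for Col13a1 at -2.13 and for Col20a1 at -0.84. Leaving out 1 library ended 3 of these calls besides that of Col5a3, with adjusted p-values up to 0.0678 for Col4a5 (without the second WT WAT library), 0.0658 for Col23a1 (without the first WT culture) and 0.0950 for Col20a1 (without the first KO culture).

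A signal appeared in counts that were left out of the collagen members. The WAT table lists a numbered copy, Col16a1-2, which had 10.2, 7.96 and 14.1 CPM in cKO WAT, against 1.87, 1.54 and 2.07 CPM in WT WAT, a log2 fold change of 2.55 ± 0.29 (SE; adjusted p = 0.000834 by edgeR's quasi-likelihood test). The copy may share reads with Col16a1. With the copy's counts added, Col16a1 had a log2 fold change of 2.74 (adjusted p = 0.000594).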

How the results depend on the processing

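Over the alternatives of the WAT test, 12 to 18 collagens were higher and 1 to 4 lower when 1 library was left out. Of all genes, 20.4% to 26.3% were then higher and 18.3% to 25.3% lower. With 1 fit over all 4 groups 25 collagens were higher, beside 35.7% of all genes. By library size alone 25 were higher and 1 lower, beside 54.2% and 8.76%. With a 2-fold minimum 10 were higher and 1 lower, beside 19.4% and 12.1%. In culture, 7 to 12 were lower when 1 library was left out, beside 3.91% to 13.2% of all genes. With length and GC trends removed 2 were higher and 6 lower, beside 11.5% and 9.13%. With 1 fit over all 4 groups 2 were lower, beside 0.608%, and with a 2-fold minimum 0, beside 1.05%. Of the interaction, 18 to 23 were higher and 1 to 2 lower when 1 library was left out. The shares of all genes were then 23.1% to 29.8% higher and 18.3% to 22.6% lower. The count lower was 0 by library size alone and 1 with voom, beside 8.28% and 20.5% of all genes. Between WT WAT and WT cultures, 2 to 5 were higher when 1 library was left out, beside 34.7% to 37.6% of all genes. With no count filter 5 were higher, beside 32.2%. By library size alone, the synthesis list had 31 higher and 1 lower in WAT, the receptors 0 lower, the cleavage list 2 lower, mural markers 7 higher (culture 1 higher), endothelial markers 1 lower, Schwann markers 8 higher (culture 2 lower), epithelial markers 1 higher and 0 lower, and cartilage markers 2 higher. Of all genes, library size alone gave 54.2% higher and 8.76% lower in WAT, and 6.24% higher and 14.0% lower in culture. The beaded share in KO minus WT cultures was -0.953 percentage points per kilobase, against -1.13 for counts. The causes were not tested.

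With the replicate number as a block, 13 collagens were higher and 3 lower in WAT, 0 higher and 13 lower in culture, 20 higher and 1 lower in the interaction, and 3 higher and 25 lower between WT WAT and WT cultures. Over all genes the block gave 23.1% higher and 21.4% lower in WAT, against 28.2% and 24.2% without it. In culture it gave 14.4% and 16.0%, against 8.94% and 10.6%. For the interaction it gave 25.7% and 20.4%, against 27.7% and 21.1%. Between WT WAT and WT cultures it gave 37.7% and 37.2%, against 38.3% and 37.6%. The correlations of same-numbered libraries' deviations were -0.31, 0.03 and -0.23 in WAT and 0.17, 0.03 and 0.23 in culture. Between different numbers they ran from -0.02 to 0.32 in WAT and from -0.22 to 0.07 in culture. Whether same-numbered libraries belong together was not tested.

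Directions turned for the values below, none of which passed the threshold after turning. In WAT by library size alone the log2 fold changes were 0.0078 for Col4a1, 0.27 for Col4a3, 0.46 for Col4a4, 0.35 for Col5a3 and 0.37 for Col20a1. In culture with length and GC trends removed they were 0.11 for Col5a2, 0.022 for Col6a5, 0.024 for Col8a2, 0.047 for Col14a1, 0.22 for Col16a1 and 0.25 for Col27a1, and by library size alone -0.027 for Col11a1. In culture with each library left out they ran from -0.052 to 0.36 for Col6a6, -0.039 to 0.16 for Col11a1, -0.19 to 0.36 for Col11a2, -0.057 to 0.32 for Col13a1, -0.59 to 0.067 for Col24a1 and -0.018 to 0.23 for Col28a1. The interaction was 0.50 for Col4a1 and 0.53 for Col4a2 by library size alone, and with each library left out it ran from -0.23 to 0.010 for Col4a2, -0.34 to 1.80 for Col4a4 and -0.26 to 1.46 for Col7a1, whose lowest value was without the third cKO WAT library. For Col13a1 between WT WAT and WT cultures it was -0.10 by library size alone and ran from -0.072 to 0.55 with each library left out.

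The smallest exact permutation p for a share or ratio with 3 libraries a group is 0.1. Genes with few reads, such as Col13a1 and Col24a1, have wide errors at this depth.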
